A study of Mus musculus with 6 samples.

Results

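The interleukin-1 family and its receptors were followed through 6 libraries of single-cell RNA as 9 mouse genes, chosen by name, of the 31053 genes counted. The choice was made with earlier results of these data known, so that counts of members set beside all genes are descriptions only. The members are the ligands Il1a, Il1b, Il18 and Il33, the receptor antagonist Il1rn, the signalling receptor Il1r1 with its partner Il1rap, the decoy receptor Il1r2 and Il1rl1, the receptor of IL-33. The DCs were grown from bone marrow of C57BL/6 mice with GM-CSF and were left untreated, stimulated from day 7 with calcitriol (VD3, 1e-06 M) for 24 h, or made Ndrg2-KO by nucleofection of Cas9 with 3 guides. The wounds were splinted excisional skin wounds of mice aged 6 weeks, treated with hydrogels seeded with control DCs, with hydrogels seeded with Ndrg2-KO DCs or with blank hydrogels, and explanted on day 10 from 5 mice per group. The paper wounded wild-type C57BL/6 and diabetic db/db mice, and chose day 10 from the healing curves of the wild type. Its text does not name the strain for the sequenced wounds. The labels call the control DCs untreated, whereas the methods describe nucleofection with non-targeting guides. Each condition was 1 library. No nucleofected DC culture without loss of Ndrg2 was analysed here, so that nucleofection and the knockout cannot be told apart in the cultures.

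IL-1α and IL-1β bind the same receptor, which signals through the shared accessory chain IL-1RAP and MyD88 to NF-κB. IL-1β and IL-18 are made as precursors and are cut by caspase-1 in inflammasomes, while IL-1α and IL-33 can act as alarms when cells are damaged. The receptor antagonist and the decoy receptor both limit the response. In skin wounds the IL-1 ligands are known from neutrophils, monocytes and macrophages, and the receptors from stromal cells among others. Only transcripts were measured here.

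In GRCm38 the ligand genes lie at chr2:129299610-129309972 (Il1a), chr2:129364570-129371139 (Il1b), chr9:50554827-50581840 (Il18) and chr19:29925114-29960718 (Il33), and the antagonist gene at chr2:24336853-24351494 (Il1rn). The receptor genes Il1r2, Il1r1 and Il1rl1 lie near each other at chr1:40074079-40125231, chr1:40225080-40317257 and chr1:40429570-40465415, and Il1rap lies at chr16:26581704-26730117.

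Il1a, Il1b and Il1rn lie on chromosome 2, and their promoters are shown because these genes encode the ligands of the IL-1 receptor and their antagonist. All 9 members had a window of 250 bases before to 50 bases after a start site in RefSeq (GRCm38.p6), with 14 windows in all. The windows are chr2:129309923-129310222 (minus strand) for Il1a, chr2:129371090-129371389 (minus strand) for Il1b and chr2:24336610-24336909 (plus strand) for Il1rn, the first of its 3 windows. They run 5′ to 3′ along the gene, and capitals mark the motifs found.
Il1a: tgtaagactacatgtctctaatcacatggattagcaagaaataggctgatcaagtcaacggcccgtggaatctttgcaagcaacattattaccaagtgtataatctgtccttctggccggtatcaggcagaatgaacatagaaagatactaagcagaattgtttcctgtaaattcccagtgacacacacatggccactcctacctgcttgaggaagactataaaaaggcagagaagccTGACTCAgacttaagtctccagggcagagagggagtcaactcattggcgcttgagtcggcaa
Il1b: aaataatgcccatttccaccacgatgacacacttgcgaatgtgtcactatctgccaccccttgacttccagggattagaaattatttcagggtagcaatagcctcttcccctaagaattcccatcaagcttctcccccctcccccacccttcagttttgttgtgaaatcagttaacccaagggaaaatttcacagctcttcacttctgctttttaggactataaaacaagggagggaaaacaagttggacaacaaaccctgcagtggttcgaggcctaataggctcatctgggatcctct
Il1rn: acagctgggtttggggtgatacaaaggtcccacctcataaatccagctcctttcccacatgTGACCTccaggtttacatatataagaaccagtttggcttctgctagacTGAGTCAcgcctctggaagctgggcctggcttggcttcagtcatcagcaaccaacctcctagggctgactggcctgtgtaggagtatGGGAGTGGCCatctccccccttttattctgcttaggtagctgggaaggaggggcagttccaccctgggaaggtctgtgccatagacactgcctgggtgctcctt

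The letters searched on both strands were GGGA, any 4 bases and CC for NF-κB, TTGCNNAA for C/EBP, TGANTCA for AP-1, GAGGAAGT for PU.1 and AGGTCA for a half-site of the vitamin D receptor. They occurred in 20.7%, 10.8%, 7.81%, 3.2% and 16.3% of all 32851 promoter windows. The Il1a window held TGACTCA, an AP-1 match, 12 bases before the start. The Il1rn window held GGGAGTGGCC (NF-κB) 54 bases, TGAGTCA (AP-1) 141 bases and, on the opposite strand, the half-site as TGACCT 189 bases before the start. None of these letters was found in the Il1b window. Among the other members, Il1r1, Il1rl1 and Il33 each had a C/EBP match in 1 window, Il1rap had an NF-κB match and the second window of Il1rl1 held the half-site. These are matches of letters, and no binding was measured.

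A cell was kept if it had 300 genes or more, fewer than 100000 UMIs and less than 10% of them mitochondrial, which left 7257 cells of the untreated, 8825 of the VD3 and 7969 of the Ndrg2-KO culture, and 1948, 5681 and 3403 cells of wounds with control DCs, with Ndrg2-KO DCs and with blank hydrogels. A library held 29675507 to 143627482 kept UMIs, and any pair of libraries shared 1 to 19 cell barcodes. The targeted gene Ndrg2 was at 4.62 CPM (its UMIs scaled to all UMIs) in the untreated culture, 1.42 after VD3 and 0.884 in the Ndrg2-KO culture. The DC gene Itgax was at 146, 77.8 and 263 CPM. Granulocyte-like cells were 929, 1111 and 35 of the cells of these cultures, and the summed level of the 8 granulocyte markers, all detected in each culture, was 5325, 6328 and 399.8 CPM.

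Levels are CPM of UMIs summed over the cells of a library or cell type, with exact Poisson 95% intervals that hold counting error only. A gene was counted as past 2-fold when both sums together held at least 50 UMIs and the CPM differed by 2-fold or more. Since each condition was 1 library, conditions could not be tested against each other, and differences describe these libraries. Levels of different genes are not compared, since 3′ counts depend on the gene.

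In the cultures, VD3 stimulated DCs held more Il1a and Il33 and less of the antagonist Il1rn and of the receptors Il1r1, Il1rap and Il1rl1 than untreated DCs. Of the members, 6 of 9 were past 2-fold, and 11.6% of 13113 genes. In Ndrg2-KO DCs, Il1a and Il33 were higher and Il1r2, Il1rap and Il1rl1 lower than in untreated DCs, with 5 of 9 past 2-fold against 19.5% of 13329 genes. Between Ndrg2-KO and VD3 stimulated DCs, 4 of 9 were past 2-fold against 22.2% of 13235 genes. The median log2 ratio over the members was 0.43, -0.16 and 0.19 in these comparisons, and over all genes tested -0.075, -0.063 and -0.010. The comparisons share libraries, so that their counts are not independent.

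Among the ligands, Il1a was at 10.8 CPM (10.3 to 11.4) in the untreated culture, 25.5 CPM (24.6 to 26.5) after VD3 and 22.3 CPM (21.6 to 23.1) in the Ndrg2-KO culture. Both other cultures stood above the untreated one, with no overlap of the intervals. The log2 ratios to untreated DCs were 1.24 (1.15 to 1.33) and 1.05 (0.96 to 1.14), and leaving mitochondrial and ribosomal protein genes out of the totals put the latter at 0.95.

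Il1b was at 21.8 CPM (21.0 to 22.6) in the untreated culture, 32.4 CPM (31.4 to 33.5) after VD3 and 19.5 CPM (18.8 to 20.3) in the Ndrg2-KO culture. It was highest in the VD3 culture, and no ratio reached 2-fold in these sums. As a mean over cells, Il1b was past 2-fold lower in Ndrg2-KO DCs, at -1.40 on the log2 scale against untreated and -1.59 against VD3 stimulated DCs. Granulocyte-like cells held 38.6%, 37.8% and 0.464% of the Il1b UMIs of the 3 cultures, beside 3.59%, 3.72% and 0.0910% of all UMIs. Without this cluster the log2 ratio of Ndrg2-KO to untreated DCs went from -0.16 to 0.49, so that its direction depended on whether these cells were counted. Leaving the cluster out did not free the sums of granulocyte RNA, since the 8 granulocyte markers went from 5325, 6328 and 399.8 CPM in the untreated, VD3 and Ndrg2-KO cultures to 4033, 4598 and 342 CPM. This holds for each value given without granulocyte-like cells, and the part of the remaining marker RNA was not tested.

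Il18 was at 5.90 CPM (5.49 to 6.33), 7.95 CPM (7.45 to 8.48) and 4.94 CPM (4.59 to 5.32) in the same order, all within 2-fold. Il33 was scarce, with 26, 62 and 196 UMIs, at 0.196 CPM (0.128 to 0.287), 0.532 CPM (0.408 to 0.682) and 1.36 CPM (1.18 to 1.57). Its intervals did not overlap, and the log2 ratio of Ndrg2-KO to untreated DCs was 2.80 (2.20 to 3.45).

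The antagonist Il1rn was at 71.8 CPM (70.3 to 73.2) in the untreated culture, 22.7 CPM (21.9 to 23.6) after VD3 and 139 CPM (137 to 141) in the Ndrg2-KO culture. The VD3 culture was the lowest and the Ndrg2-KO culture the highest, 2.61 (2.55 to 2.67) apart on the log2 scale. Against untreated DCs the log2 ratio was -1.66 for VD3 and 0.95 for Ndrg2-KO, and the latter was 1.18 without the granulocyte-like cluster, with most granulocyte marker RNA still counted. For each Il1b UMI there were 3.30 (3.16 to 3.44) Il1rn UMIs in the untreated culture, 0.701 (0.667 to 0.737) after VD3 and 7.12 (6.85 to 7.41) in the Ndrg2-KO culture. After each cell was drawn to 2000 UMIs, the share of cells with an Il1rn UMI stood in the same order, at 12.1%, 5.39% and 18.3%.

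**Figure D1:**
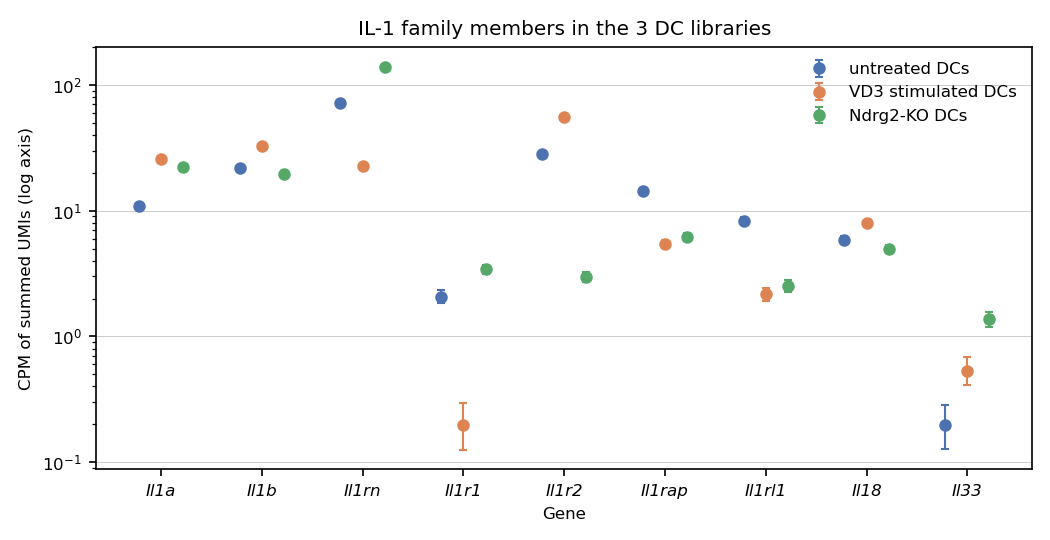
Levels of the 9 members in the 3 DC libraries as CPM of summed UMIs on a log axis, 1 point per library, with exact Poisson 95% intervals as bars. Il1rn was highest in Ndrg2-KO DCs (139 CPM) and lowest in VD3 stimulated DCs (22.7 CPM), whereas Il1r2 was highest in VD3 stimulated (55.2 CPM) and lowest in Ndrg2-KO DCs (2.97 CPM).

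Among the receptors, Il1r1 was at 2.07 CPM (1.83 to 2.33), 0.197 CPM (0.125 to 0.296) and 3.41 CPM (3.12 to 3.73) in the untreated, the VD3 and the Ndrg2-KO culture. Only 23 UMIs of it were counted in the VD3 culture, and the log2 ratio to untreated DCs was -3.39 (-4.07 to -2.77). The decoy receptor Il1r2, which binds IL-1 without signalling, was at 28.2 CPM (27.3 to 29.1), 55.2 CPM (53.9 to 56.6) and 2.97 CPM (2.70 to 3.27). It stood in the opposite order to Il1r1, with a log2 ratio of -3.24 (-3.39 to -3.10) for Ndrg2-KO and 0.97 (0.91 to 1.03) for VD3 against untreated DCs. The UMIs of Il1r2 per UMI of Il1r1 were 13.6 (12 to 15.5) in the untreated culture, 279.5 (186 to 441) after VD3 and 0.871 (0.764 to 0.994) in the Ndrg2-KO culture.

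The accessory chain Il1rap was at 14.4 CPM (13.8 to 15.1) in the untreated culture, 5.44 CPM (5.02 to 5.88) after VD3 and 6.19 CPM (5.79 to 6.61) in the Ndrg2-KO culture. The IL-33 receptor Il1rl1 was at 8.35 CPM (7.87 to 8.86), 2.16 CPM (1.90 to 2.45) and 2.53 CPM (2.27 to 2.80). Both were highest in untreated DCs. Between Ndrg2-KO and VD3 stimulated DCs, the log2 ratio was 0.19 (0.039 to 0.34) for Il1rap and 0.22 (-0.012 to 0.46) for Il1rl1. As a mean over cells, the ratio of Il1rap turned to -0.26.

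Among cells under 5% mitochondrial UMIs, Il1rn in VD3 against untreated DCs stood at -0.96 and Il1rap in Ndrg2-KO against untreated DCs at -0.99, both just within 2-fold. Il1b and Il1r2 were then past 2-fold after VD3, at 1.10 and 1.08, and Il1rn in Ndrg2-KO DCs, at 1.5. The 5% limit left 3125, 3619 and 1721 cells of the 3 cultures.

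The cells of the cultures were clustered to see which of them carried the members. Most clusters came largely from 1 culture, so that cell state and library cannot be told apart in them. In the granulocyte-like cluster Il1b was at 234 CPM in the untreated culture and 329 CPM after VD3, against 1.84 and 0.991 CPM in mature DC-like cells. Proliferating-like cells of the untreated culture held Il1b at 21.6 CPM and 42.5% of its UMIs, beside 42.8% of all UMIs. In the mature DC-like cells of the Ndrg2-KO culture Il1b was at 27.8 CPM, with 25.2% of its UMIs and 17.7% of all UMIs. The decoy receptor Il1r2 in granulocyte-like cells was at 164 CPM in the untreated culture, 327 CPM after VD3 and 191 CPM in the 35 Ndrg2-KO cells. In cDC1-like cells it was at 238 CPM in 77 cells of the untreated and 302 CPM in 143 cells of the VD3 culture. These clusters held few cells of the Ndrg2-KO culture, in which unnamed cluster 11, with 494 cells, held Il1r2 at 44.3 CPM and 48.9% of its UMIs, beside 3.29% of all UMIs. Proliferating-like cells of the untreated culture held Il1r2 at 34.2 CPM and 51.9% of its UMIs, beside 42.8% of all UMIs. They pool cluster 6, with 1691 untreated cells, and cluster 3, with 564. Over all cultures the median depth was 26572 UMIs in cluster 6 and 2025 in cluster 3, which also held 2 granulocyte markers. The largest class of the Ndrg2-KO culture, 4673 premature DC-like cells, held Il1r2 at 0.717 CPM. The class pools cluster 0, with 3618 of these cells and Il1r2 at 0.554 CPM, and cluster 10, with 1055 cells and Il1r2 at 1.15 CPM. Cluster 10 also held all 6 proliferating markers and was led by genes of dividing cells such as Cep55, Rrm2 and Anln, with no premature DC marker among its leading genes. Without the granulocyte-like cluster, and with most granulocyte marker RNA still counted, the log2 ratio of Il1r2 between Ndrg2-KO and untreated DCs was -3.04.

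Il1rn in granulocyte-like cells was at 358, 154 and 1041 CPM in the untreated, the VD3 and the Ndrg2-KO culture, in the order of the whole cultures. Premature DC-like cells carried 80.0% of the Il1rn UMIs of the Ndrg2-KO culture, at 157 CPM, and 70.8% of all its UMIs. Proliferating-like cells carried 50.2% of the Il1rn UMIs of the untreated culture, at 84.2 CPM, and 42.8% of all its UMIs. The mature DC-like class pools separate clusters, since 3295 of 3314 cells of cluster 1 were of the VD3, 2597 of 2777 of cluster 2 of the untreated and 1833 of 1863 of cluster 5 of the Ndrg2-KO culture, so that levels in it compare different clusters. Among mature DC-like cells, Il1rn was at 7.97, 16.0 and 22.5 CPM, so that in these cells the VD3 culture stood above the untreated one. Il1a was high in unnamed cluster 8, which held 1145 VD3 stimulated cells, at 78.2 CPM and 51.1% of the Il1a UMIs of that culture, beside 16.7% of all its UMIs. In the untreated culture, proliferating-like cells held Il1a at 12.7 CPM and 50.3% of its UMIs, beside 42.8% of all UMIs. In mature DC-like cells Il1a was at 0.335 CPM in the untreated culture, 0.654 CPM after VD3 and 12.8 CPM in the Ndrg2-KO culture.

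Il18 in mature DC-like cells was at 10.2, 14.1 and 12.8 CPM in the untreated, the VD3 and the Ndrg2-KO culture. These cells held 54.3%, 76.7% and 45.8% of its UMIs, beside 31.5%, 43.3% and 17.7% of all UMIs. Il1rl1 was at 102 CPM in 57 basophil-like cells of the untreated and 103 CPM in 77 of the VD3 culture, which held 5.60% and 29.8% of its UMIs, beside 0.457% and 0.623% of all UMIs. The Ndrg2-KO culture had 1 basophil-like and 1 cDC1-like cell, too few to give a level.

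**Figure D2:**
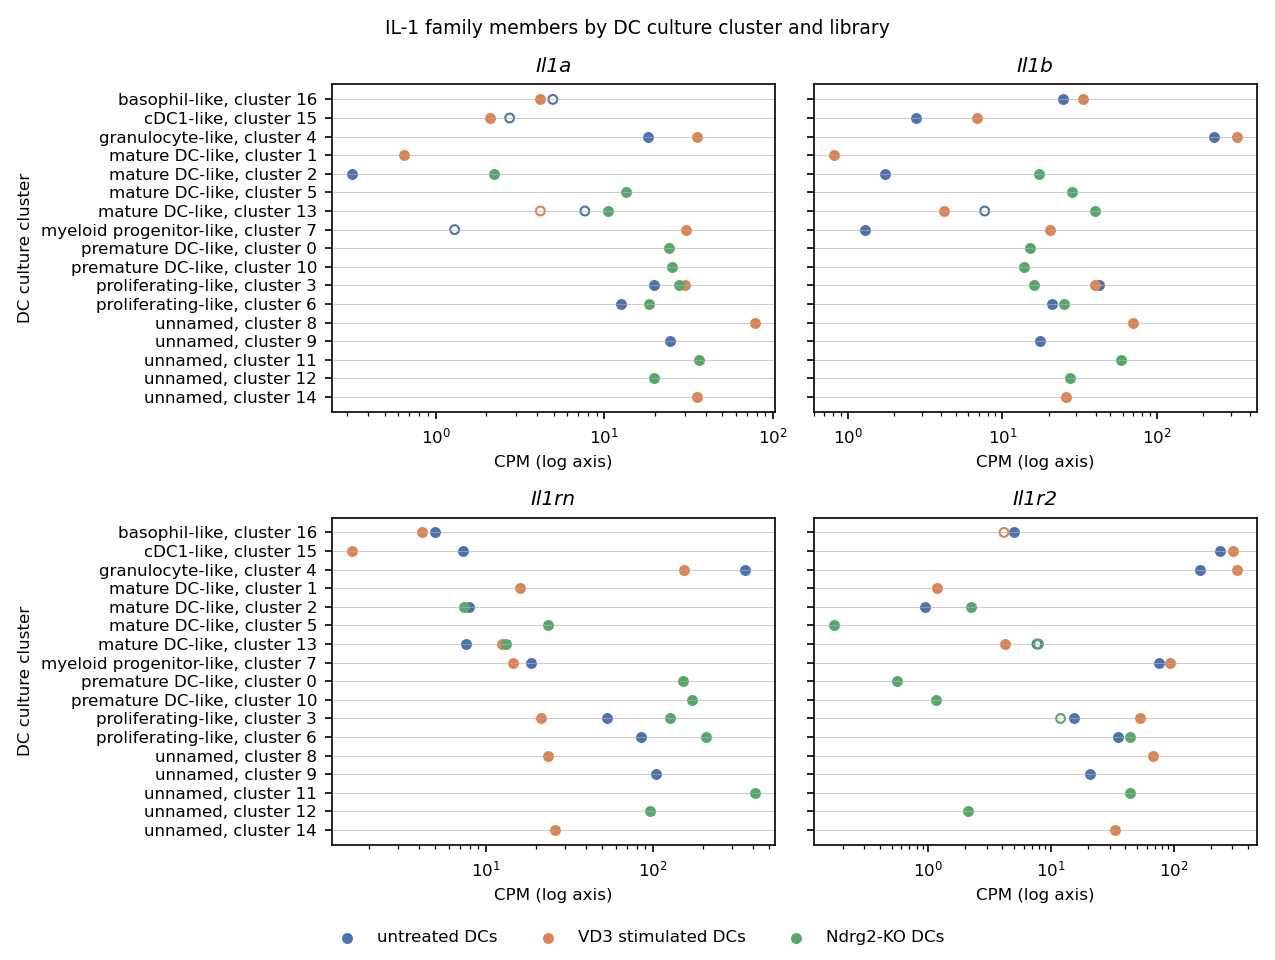
Levels of members in the clusters of the DC cultures with at least 50 cells of a library, as CPM of summed UMIs on a log axis. Points are coloured by library, and open circles mark sums with 0 UMIs, drawn at the floor of 3 UMIs. Il1b and Il1r2 stood high in the granulocyte-like cluster (329 and 327 CPM in VD3 stimulated DCs).

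In the wounds, Il1a, Il1b and Il1rn were highest with Ndrg2-KO DCs and lowest with control DCs, while Il1r1, Il1rl1 and Il33 were highest with control DCs. Against control DCs, 4 of 9 members were past 2-fold with Ndrg2-KO DCs (Il1a, Il1b, Il1rn and Il1rap, all higher), and 10.6% of 13358 genes. With blank hydrogels, 4 of 9 were past 2-fold (Il1a, Il1b, Il1r2 and Il1rap, all higher), against 7.6% of 13137 genes. Between Ndrg2-KO DCs and blank hydrogels, 1 of 9 was past 2-fold, which was Il1a, against 3.76% of 13449 genes. The median log2 ratio over the members was 0.88, 0.97 and 0.16 in these comparisons, and over all genes tested -0.14, -0.028 and -0.10. These comparisons share libraries too.

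Il1a was at 51.3 CPM (48.7 to 53.9) in wounds with control DCs, 502 CPM (496 to 508) with Ndrg2-KO DCs and 128 CPM (124 to 131) with blank hydrogels. The Ndrg2-KO library stood far above both others, with log2 ratios of 3.29 (3.22 to 3.37) to control DCs and 1.98 (1.93 to 2.02) to blank hydrogels. Il1b was at 687 CPM (677 to 696), 3331 CPM (3314 to 3347) and 1750.1 CPM (1736 to 1764) in the same order. Its log2 ratios to control DCs were 2.28 (2.26 to 2.30) with Ndrg2-KO DCs and 1.35 (1.33 to 1.37) with blank hydrogels.

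The antagonist Il1rn was at 374 CPM (367 to 381), 1076 CPM (1067 to 1086) and 731 CPM (722 to 740.1) in wounds with control DCs, with Ndrg2-KO DCs and with blank hydrogels. Il1a, Il1b and Il1rn thus stood in the same order of libraries with no overlap of intervals. The Il1rn UMIs per Il1b UMI stood in the opposite order, at 0.545, 0.323 and 0.418.

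Il18 was within 2-fold, at 17.7, 27.1 and 20.0 CPM. Il33 was at 199 CPM (194 to 204) with control DCs, 118 CPM (115 to 121) with Ndrg2-KO DCs and 115 CPM (111 to 118) with blank hydrogels. Il1r1 was at 94.3, 59.8 and 53.5 CPM, and Il1rl1 at 372, 236 and 240.3 CPM. The control library was the highest for these last 3 genes, with Il1r1 at -0.66 and -0.82 on the log2 scale in the other libraries. As a mean over cells, Il33, Il1r1 and Il1rl1 were past 2-fold lower with Ndrg2-KO than with control DCs, at -1.24, -1.23 and -1.12. Il1r2 was at 93.9, 173 and 209 CPM and Il1rap at 54.9, 114 and 121 CPM, both lowest with control DCs.

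**Figure D3:**
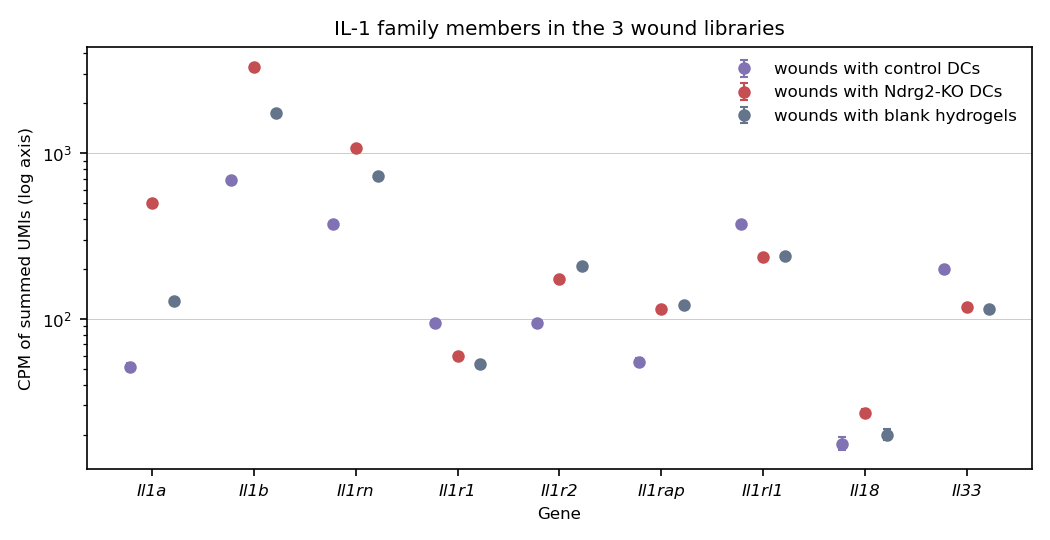
Levels of the 9 members in the 3 wound libraries as CPM of summed UMIs on a log axis, 1 point per library, with exact Poisson 95% intervals as bars. Il1a ran from 51.3 CPM with control DCs to 502 CPM with Ndrg2-KO DCs, and Il1r1, Il1rl1 and Il33 were highest with control DCs.

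These sums mix cell types that made up different parts of the libraries, and in such sums more cells of a type and more RNA per cell cannot be told apart. Neutrophil-like cells, in which all 7 neutrophil markers were detected, were 23.6% of cells in wounds with control DCs, 50.9% with Ndrg2-KO DCs and 45.8% with blank hydrogels. Fibroblast-like cells gave 50.2%, 26.0% and 27.8% of the UMIs.

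The log2 ratios of whole libraries were therefore taken again with every cluster held at its mean share over the 3 libraries, an alternative chosen after the data were seen. The mix of finer groups within a cluster was not held. Il1a then stood at 1.83 between Ndrg2-KO and control DCs and at 1.87 between Ndrg2-KO DCs and blank hydrogels. Il1b stood at 0.94 and Il1rn at 0.41 between Ndrg2-KO and control DCs, both within 2-fold. The direction turned for Il1rap (-0.32), Il1r2 (-0.19), Il1r1 (0.13), Il1rl1 (0.12) and Il33 (0.074). Between blank hydrogels and control DCs no member was past 2-fold, with Il1a at -0.040 and Il1b at 0.062.

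By cell type, Il1a, Il1b, Il1rn, Il1r2 and Il1rap were highest in neutrophil-like cells, Il1r1, Il1rl1 and Il33 in fibroblast-like cells and Il18 in macrophage-like cells. This held in each of the 3 libraries among the 10 types compared. For Il1b, Il1rn, Il1r1, Il1r2, Il1rap, Il1rl1 and Il33 the range over the libraries in the first type did not overlap that of the next, whereas for Il1a (after neutrophil-like cells, unnamed cluster 1) and Il18 (after macrophage-like, monocyte-like cells) it did. Outside the 10 types, unnamed cluster 12, led by dividing-cell genes, held 13, 38 and 18 cells in wounds with control DCs, with Ndrg2-KO DCs and with blank hydrogels. Its 38 cells with Ndrg2-KO DCs held 13.9% of the Il1rl1 UMIs of that library, at 954 CPM (908 to 1002), above its fibroblast-like cells. No level was taken in the fewer cells of the other libraries.

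**Figure D4:**
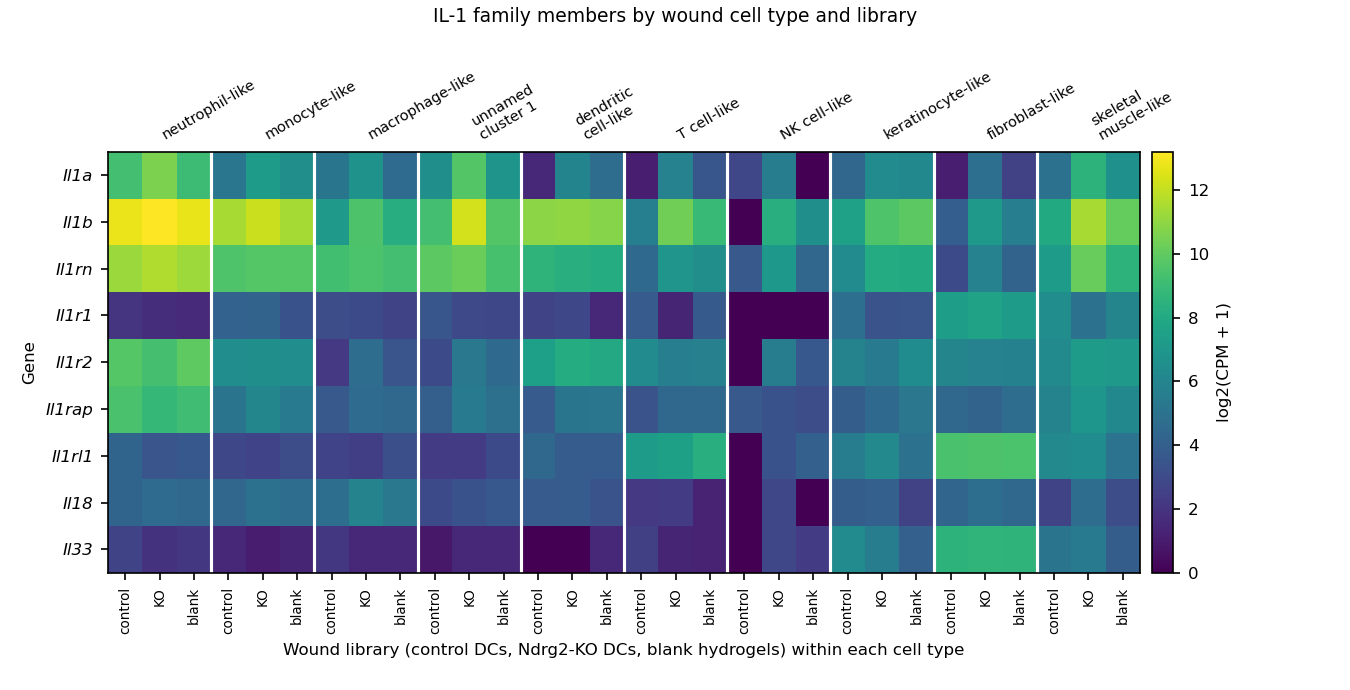
Heat map of log2(CPM + 1) of the 9 members in 10 wound cell types, each in the 3 wound libraries. Il1b was highest in neutrophil-like cells, at 7063 to 9446 CPM, and Il1rl1 and Il33 in fibroblast-like cells, at 692 to 739.9 and 373 to 402 CPM.

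In neutrophil-like cells, 1 of 7 members tested was past 2-fold between Ndrg2-KO and control DCs, which was Il1a, and 8.38% of 5455 genes. Il1a was at 615 CPM (578 to 655) with control DCs, 1573 CPM (1548 to 1598) with Ndrg2-KO DCs and 531 CPM (512 to 549.7) with blank hydrogels. The Ndrg2-KO library was the highest, with log2 ratios of 1.35 (1.26 to 1.45) to control DCs and 1.57 (1.51 to 1.62) to blank hydrogels, the latter where 7.56% of 6360 genes were past 2-fold. Between blank hydrogels and control DCs, 0 of 7 members were, against 8.36% of 5061 genes. The medians over the members were 0.37, 0.18 and -0.048, and over all genes -0.072, -0.26 and 0.068.

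After each cell was drawn to 1000 UMIs, an Il1a UMI was found in 20.5% (16.9 to 24.5) of neutrophil-like cells with control DCs, 39.9% (38.1 to 41.7) with Ndrg2-KO DCs and 19.1% (17.2 to 21.2) with blank hydrogels. In fibroblast-like cells, taken as the type low in this gene, the share was 0.213%, 2.38% and 0.309%. The median depth before drawing was 3276, 2927 and 3359 UMIs in neutrophil-like and 30018, 26664 and 28002 UMIs in fibroblast-like cells. Both types had their highest share with Ndrg2-KO DCs.

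Il1b was at 7299.6, 9446 and 7063 CPM in neutrophil-like cells of wounds with control DCs, with Ndrg2-KO DCs and with blank hydrogels, and Il1rn at 2385, 3193 and 2494 CPM. Both were highest with Ndrg2-KO DCs and within 2-fold of control DCs, at log2 ratios of 0.37 (0.34 to 0.40) and 0.42 (0.37 to 0.47). The Il1rn UMIs per Il1b UMI in these cells were 0.327, 0.338 and 0.353, a narrow range. Il1r2 was at 853, 643 and 985 CPM and Il1rap at 669, 447 and 571 CPM. These 2 were lowest with Ndrg2-KO DCs, with log2 ratios to control DCs of -0.41 and -0.58.

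At a finer resolution the neutrophil-like cells fell into 3 larger groups and a small one. In the group led by Ltf, Il23a, Ngp and Il1f6, with 40, 717 and 199 cells in the 3 libraries, Il1a was at 1593 CPM (1394 to 1812) with control DCs, 3292 CPM (3226 to 3358) with Ndrg2-KO DCs and 1465 CPM (1387 to 1547) with blank hydrogels. Il1a is itself among the genes that set this group apart. In the group led by Stfa2 and Ly6g, with 274, 1207 and 614 cells, it was at 356, 797 and 355 CPM, and in the group led by Ngp and Gm17619, with 132, 878 and 689 cells, at 1055, 968 and 376 CPM. The leading genes were taken over the libraries together. Ngp had 34, 1128 and 37 UMIs in all kept cells of the 3 libraries, so that it describes few cells of the control and blank libraries. For Il1a, the Ndrg2-KO library was the highest in the first pair of groups and close to, and below, control DCs in the last. The groups made up different parts of the libraries, so that values of neutrophil-like cells compare different mixes of them.

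**Figure D5:**
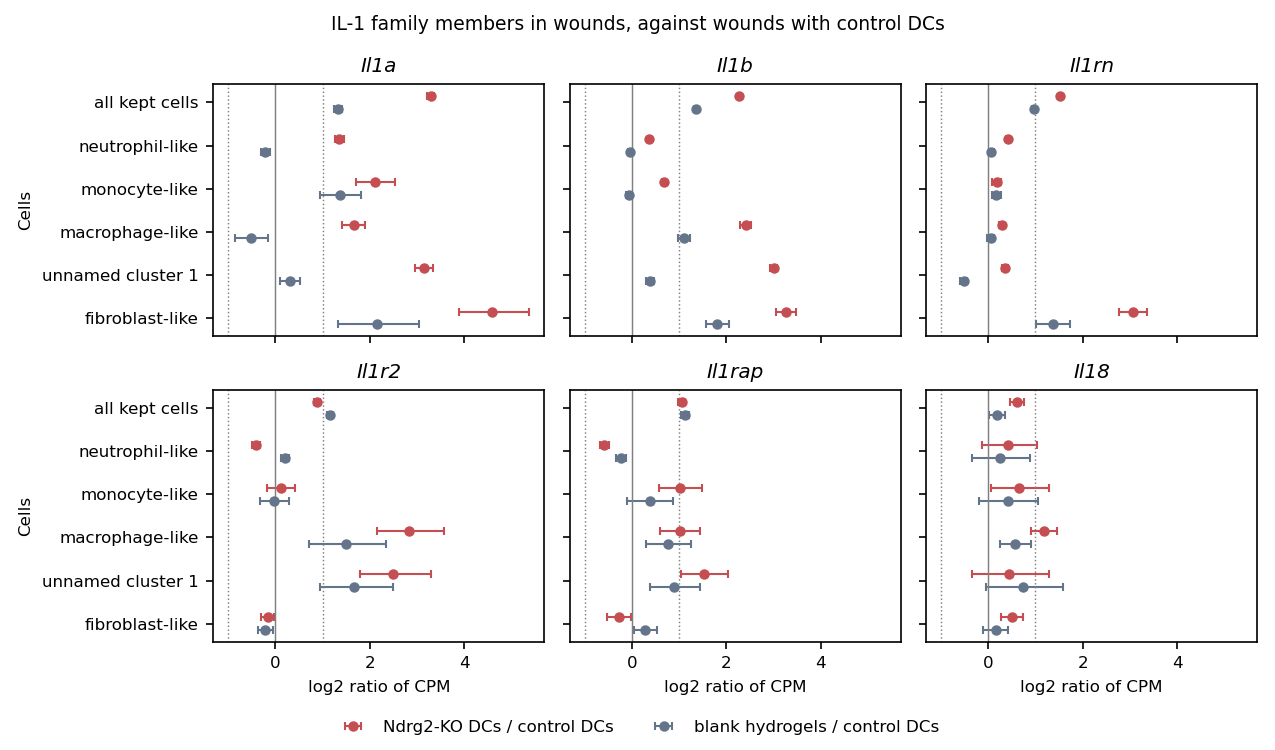
Log2 ratios of 6 members between wound libraries, over all kept cells and within cell types, with exact 95% intervals as bars and dotted lines at 2-fold. In neutrophil-like cells Il1a was past 2-fold between Ndrg2-KO and control DCs (1.35) and Il1b was not (0.37), whereas over all kept cells Il1b was (2.28).

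Unnamed cluster 1, led by Mmp12, Ppbp, Mmp13, Npy and Arg1 and with 169, 713 and 414 cells, held Il1b at 619.9 CPM (589 to 651) with control DCs, 4968 CPM (4920.1 to 5015) with Ndrg2-KO DCs and 806 CPM (784 to 829) with blank hydrogels. Il1a in it was at 92.9, 824 and 115 CPM. Both ligands were several times higher with Ndrg2-KO DCs than in the other libraries, while Il1rn was at 949, 1213 and 660.2 CPM. Between Ndrg2-KO and control DCs the log2 ratios were 3.0 for Il1b and 3.15 for Il1a, where 7.07% of 8230 genes were past 2-fold. The cluster gave 25.5% of the Il1b UMIs of the Ndrg2-KO library and 7.63% of those with control DCs, beside 17.1% and 8.45% of all UMIs.

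The 7 neutrophil markers summed to 249, 4928 and 2047 CPM in the same cluster, and their part in the result was not tested. Il1b UMIs per 1000 UMIs of the neutrophil gene S100a9 were 13752, 2368 and 1119 in it and 99.7, 155 and 119 in neutrophil-like cells. At the finer resolution, an unnamed cluster 9 of 15, 308 and 48 cells, led by Mmp13, Mmp12 and Nos2, held Il1b at 2392, 7527 and 1739 CPM and Il1a at 433, 1353 and 388 CPM. An unnamed cluster 5 of 145, 347 and 309 cells, led by Ppbp, Atp6v0d2 and F7, held Il1b at 412, 3288 and 658 CPM and Il1a at 70.9, 464 and 74.9 CPM. Both ligands were highest with Ndrg2-KO DCs in each of these clusters. Cluster 9 was mostly of the Ndrg2-KO library and held few control cells, so that the values of unnamed cluster 1 compare different mixes of such groups.

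In macrophage-like cells, 5 of 8 members tested were past 2-fold with Ndrg2-KO against control DCs, all higher, and 4% of 9173 genes. With blank hydrogels 2 of 8 were, against 1.79% of 8439 genes, and between Ndrg2-KO DCs and blank hydrogels 3 of 8, against 2.83% of 9128 genes. The medians over the members were 1.10, 0.61 and 0.44, and over all genes -0.014, 0.046 and -0.044.

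Il1b in macrophage-like cells was at 139.5 CPM (129.6 to 150) with control DCs, 742 CPM (724 to 760.1) with Ndrg2-KO DCs and 299 CPM (284 to 315) with blank hydrogels. Il1a was at 33.5, 105 and 23.5 CPM. Il1rn, at 588, 716 and 609 CPM, was within 2-fold, so that its UMIs per Il1b UMI were 4.22, 0.965 and 2.04. The other members past 2-fold against control DCs were Il1r2 at 3.64, 25.7 and 10.3 CPM, Il1rap at 11.7, 23.6 and 20.0 CPM and Il18 at 26.1, 59.1 and 38.7 CPM.

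These levels depend on how the cells were named. When each cell was named by its own markers, 664, 1389 and 1017 cells were macrophage-like, with Il1b at 544, 2181 and 740.0 CPM, Il1a at 49.4, 321 and 62.1 CPM, Il1r2 at 18.5, 40.1 and 24.4 CPM, Il1rap at 14.5, 33.2 and 22.5 CPM and Il18 at 19.9, 36.8 and 22.6 CPM. Il1a, Il1b, Il1r2 and Il1rap were again past 2-fold higher with Ndrg2-KO than with control DCs, and Il18 was not. Between blank hydrogels and control DCs, Il1b and Il1r2 were then within 2-fold, and Il1rl1 at 6.44, 7.81 and 13.6 CPM and Il33 at 3.49, 1.75 and 9.25 CPM were past it.

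The 7 neutrophil markers summed to 389.6, 2324 and 1048 CPM in macrophage-like cells, and their part in the result was not tested. Il18 in neutrophil-like cells was at 17.8, 23.9 and 21.1 CPM, below its level in macrophage-like cells of each library. Monocyte-like cells, which held the markers Ly6c2, Ccr2, Plac8 and Ms4a4c, had Il1b at 2849, 4569 and 2725 CPM with control DCs, with Ndrg2-KO DCs and with blank hydrogels, and Il1a at 34.9, 151 and 89.8 CPM. Their neutrophil markers summed to 2496, 9556 and 3507 CPM, and the part of these was not tested either.

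In dendritic cell-like cells Il1b was at 1901, 2064 and 1800.1 CPM and within 2-fold between libraries, and Il1r2 was at 172, 290.1 and 253 CPM. These were 39, 83 and 77 cells. The 7 neutrophil markers summed to 714, 4724 and 3844 CPM in them, in the same order as Il1r2, and their part in the result was not tested. Whether cells of the hydrogels were among them could not be read from the counts.

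Fibroblast-like cells, which held all 8 fibroblast markers, carried most UMIs of Il33, Il1rl1 and Il1r1. Il33 was at 373 CPM (363 to 383) with control DCs, 402 CPM (392 to 414) with Ndrg2-KO DCs and 386 CPM (373 to 398) with blank hydrogels. Il1rl1 was at 692 CPM (679 to 706), 739.9 CPM (725 to 755) and 707 CPM (690.3 to 724), and Il1r1 at 168 CPM (161 to 174), 191 CPM (183 to 199) and 153 CPM (145 to 161). Between Ndrg2-KO and control DCs the log2 ratios were 0.11, 0.10 and 0.19, on the other side of 0 from those over all cells. The class sat in different clusters in the 3 libraries, however. At the finer resolution 175 of its cells with Ndrg2-KO DCs formed cluster 13, led by Reg3g, Ngfr and Pgr, which held 2 and 1 cells of the control and blank libraries. There Il33 was at 435, Il1rl1 at 409 and Il1r1 at 285 CPM. In cluster 2, with 453, 260 and 290 cells in the 3 libraries, Il33 was at 376, 361 and 439 CPM, Il1rl1 at 721, 929 and 728 CPM and Il1r1 at 169, 148 and 161 CPM. Within cluster 2, Il33 and Il1r1 were thus lower and Il1rl1 higher with Ndrg2-KO than with control DCs. Fibroblast-like cells held 94.2%, 88.3% and 93.3% of Il33 UMIs and 93.3%, 81.3% and 81.7% of Il1rl1 UMIs.

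An Il33 UMI was found in 19.8%, 27.1% and 25.0% of fibroblast-like cells drawn to 1000 UMIs, and in 0.441%, 0.315% and 0.458% of neutrophil-like cells. For Il1r1 these shares were 15.3%, 17.5% and 12% and 0.441%, 0.351% and 0.131%. The decoy receptor Il1r2 was also counted in fibroblast-like cells, at 64.6, 57.7 and 55.6 CPM. Its UMIs per 1000 S100a9 UMIs were 2470.4, 184 and 217 there, and 11.6, 10.6 and 16.6 in neutrophil-like cells.

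In the same fibroblast-like cells, 3 of 9 members were past 2-fold between Ndrg2-KO and control DCs, and 5.32% of 10995 genes. These were Il1a, Il1b and Il1rn, and they were also past 2-fold between blank hydrogels and control DCs (3.16% of 10714 genes) and between Ndrg2-KO DCs and blank hydrogels (3.58% of 10723 genes). All 3 were highest in neutrophil-like cells, as were Il1r2 and Il1rap, which were not past 2-fold in fibroblast-like cells. Il1b was at 14.2, 136 and 50 CPM, with a UMI in 0.638%, 6.49% and 3.40% of drawn cells, and in 87.7%, 92.7% and 84.5% of neutrophil-like cells. The 7 neutrophil markers summed to 69.1, 592 and 542 CPM in fibroblast-like cells, and their part in the result was not tested. T cell-like cells had Il1b at 51.5, 1299.5 and 494 CPM beside neutrophil markers at 42.1, 3469 and 2483 CPM.

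Il1rl1 was also counted in T cell-like cells, at 152 CPM (127 to 181), 179 CPM (157 to 204) and 313 CPM (272 to 359) with control DCs, with Ndrg2-KO DCs and with blank hydrogels. It was highest with blank hydrogels, and the intervals of the other libraries overlapped. This cluster also held 4 mast cell markers and was led by Il22, Il17a, Il5 and Mcpt8. When each cell was instead named by its own markers, 109, 193 and 83 T cell-like cells remained, with Il1rl1 at 140.1 CPM (116 to 167), 133 CPM (112 to 157) and 217 CPM (182 to 256). The naming set T cell markers against mast cell markers in each cell, so that mast cell RNA in these cells has no independent measure here. Their Il1rl1 level was close to that of the cluster with control DCs and lower than that of the cluster in the other libraries, and it was again highest with blank hydrogels. No mast cell class was obtained.

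Of 50 further genes of the pathway, 42 could be tested in the cultures. VD3 stimulated DCs had 10 of them past 2-fold against untreated DCs, 1 higher and 9 lower, with a median log2 ratio of -0.16, where 11.6% of 13113 genes were past 2-fold. The count was 4 among cells under 5% mitochondrial UMIs and 4 as a mean over cells. The higher gene was Ptgs2, the prostaglandin synthase COX-2, at 3.43. Among the lower ones were the IL-18 receptor chains Il18r1 (-1.15) and Il18rap (-1.98), the IL-36 receptor Il1rl2 (-1.32), the inflammasome sensor Nlrp3 (-1.01) and the neutrophil chemokines Cxcl1 (-1.71), Cxcl2 (-1.35) and Cxcl3 (-1.24). None of the 16 signalling genes was past 2-fold.

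Ndrg2-KO DCs had 7 of 42 pathway genes past 2-fold against untreated DCs, 1 higher and 6 lower, with a median of -0.19, where 19.5% of 13329 genes were past 2-fold, so that the pathway did not stand above the background. Il18bp, which neutralises IL-18, was higher at 1.55. Il1f9, the gene of IL-36γ, was lower at -3.53, as were Cxcl1 (-3.17), Cxcl2 (-2.41), the NF-κB cofactor Nfkbiz (-2.37), Il6 (-1.66) and the gasdermin Gsdme (-1.58). Against VD3 stimulated DCs, 13 of 42 were past 2-fold, 5 higher and 8 lower, where 22.2% of 13235 genes were. The receptor genes Il18r1 (1.74), Il18rap (2.17) and Il1rl2 (2.11) were higher, as was the inflammasome adaptor Pycard (1.22), and Ptgs2 was lower at -3.85. No signalling gene was past 2-fold in either comparison.

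In the wounds, 45 of the 50 genes could be tested. Ndrg2-KO against control DCs had 8 past 2-fold, 7 higher and 1 lower, with a median of 0.19, where 10.6% of 13358 genes were past 2-fold. With named types or all clusters at their mean share the count was 1 and 2. The IL-36 genes Il1f6 (3.79) and Il1f9 (1.60), Nlrp3 (1.80), the kinase Irak2 (1.37), the NF-κB inhibitor Nfkbia (1.10) and the chemokines Cxcl2 (1.78) and Cxcl3 (2.21) were higher, and Mmp3, a matrix metalloproteinase, was lower at -1.11. With blank hydrogels, Il1f6 (2.07), Il1f9 (1.54), Nlrp3 (1.21) and Irak2 (1.46) were past 2-fold above control DCs, where 7.6% of 13137 genes were past 2-fold, and none was at fixed shares. Between Ndrg2-KO DCs and blank hydrogels, Il1f6 (1.72) and Cxcl3 (1.33) were higher, where 3.76% of 13449 genes were past 2-fold. These last counts were near the background.

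Within neutrophil-like cells, Il1f6 (1.42), Il18bp (2.25) and the monocyte chemokine Ccl2 (2.0) were past 2-fold with Ndrg2-KO against control DCs, 3 of 39 genes tested, and 8.38% of 5455 genes. In macrophage-like cells, Il1f9 (1.59) and Cxcl3 (2.51) were, 2 of 36 tested, and 4% of 9173 genes. In fibroblast-like cells, Il1f9 (4.86), Nlrp3 (2.82) and Irak2 (1.53) were, 3 of 40 tested, and 5.32% of 10995 genes, beside the higher neutrophil markers given above.

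Across 25 sums, which were the named wound cell types of each library with at least 50 cells and the 3 DC libraries, the genes closest to each member in log2(CPM + 1) were found among 13480 genes by Pearson's r. The sums share libraries and cell types, and the correlations describe them only. Il1a was closest to Ccl3 (0.949), Acod1 (0.946) and Ccl4 (0.944). Il1b was closest to Mefv (0.941) and Arg2 (0.934), and Il1rn to Clec4d (0.979) and Cd14 (0.977). Il33 was closest to Adgrd1 (0.976) and Igfbp3 (0.972), Il1r1 to Glis2 (0.932) and Antxr1 (0.917), and Il1rl1 to Abhd2 (0.930) and Plcb4 (0.929). Il1rap was closest to Gm20406 (0.949) and Gm39321 (0.938). The weakest first matches were those of Il18, with Metrnl (0.889), and Il1r2, with Dusp16 (0.846).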

How the data were processed

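The authors deposited UMI counts per gene and cell, not normalized, as 10x matrices. The file headers name Cell Ranger 3.1.0 for the DC and 6.0.0 for the wound libraries, and the submitters' processing notes name Seurat 3.1.1. The methods give mm10 and the notes mm9 as the genome build. Gene coordinates here are GRCm38. A cell was kept with 300 or more genes, fewer than 100000 UMIs and less than 10% of them mitochondrial. The members and gene lists were chosen with earlier results of these data known.

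UMIs were summed per library or cell type and given as CPM. Intervals were exact Poisson for CPM, conditional binomial for log2 ratios and Clopper-Pearson for shares, at 95%. Sums with 0 UMIs were set against a floor of 3 UMIs. Cells were drawn to 2000 UMIs (DCs) or 1000 UMIs (wounds) for shares. Cultures and wounds were each clustered with Seurat 5.3.0 in R 4.3.3, after scaling to 10000 counts, on 2000 variable genes and 15 principal components at resolution 0.5. A cluster was named when at least 3 markers fixed for a type reached 50 CPM and stood 2-fold over the other cells. Naming each wound cell by its own markers was an alternative, under which 92 of 180 levels within cell types moved outside their intervals. Doublets were kept, since automatic scores marked under 0.873% of cells in any library, and the highest 6% of scores were left out as an alternative. Similar genes and ratios were computed in Python 3.11.15 with NumPy 2.4.6, pandas 2.3.3 and SciPy 1.17.1, and the ratio script was tested on simulated data. The genes named were fixed as the 9 members, examples of the pathway genes, the 3 genes most correlated with each member (the first 1 to 3 are given), and marker genes where a result turns on them. No library was left out, and no test between conditions was possible with 1 library each.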

Additional observations from a re-analysis of the deposited data

Results flagged for a closer look

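Il1rl1, the receptor of IL-33, differed in opposite directions between cell types of wounds with blank hydrogels and with control DCs. Its log2 ratio was 1.04 in T cell-like cells and -1.22 in skeletal muscle-like cells. The difference between the 2 types was not tested, since each condition was 1 library. The skeletal muscle-like cluster also held mast cell, Schwann cell and pericyte markers, and the T cell-like cluster held mast cell markers. In T cell-like cells named cell by cell, Il1rl1 was at 140.1 CPM with control DCs and 217 CPM with blank hydrogels, less than 2-fold apart.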

How the results depend on the processing

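No paired analysis was possible because each condition was 1 library and the labels give no replicate numbers. In the wounds, holding named cell types, or all clusters (added after seeing the data), at their mean share turned Il1rap between Ndrg2-KO and control DCs to -0.41 and -0.32, Il1a between blank hydrogels and control DCs to -0.098 and -0.040, and Il1rap in the latter comparison to -0.13 and -0.086. Members within 2-fold turned too. With named types these were, between Ndrg2-KO and control DCs, Il1r2 (-0.25), Il1r1 (0.12), Il1rl1 (0.090) and Il33 (0.092), and between blank hydrogels and control DCs Il1rl1 (0.042) and Il33 (0.022). With all clusters, Il1rl1 (0.081) and Il1rn (-0.034) turned in the latter comparison, and Il1rl1 between Ndrg2-KO DCs and blank hydrogels went to 0.039. The members past 2-fold went from 4 to 1 under both settings for Ndrg2-KO against control DCs and from 4 to 0 for blank hydrogels against control DCs. The pathway genes past 2-fold went from 8 to 1 and 2, and from 4 to 0 under both, and for Ndrg2-KO DCs against blank hydrogels from 2 to 1 with named types. With the mean over cells, the members past 2-fold for blank hydrogels against control DCs were 2, which were Il1r1 (-1.30) and Il33 (-1.11), both lower, and no longer the 4 higher ones, the pathway genes for Ndrg2-KO DCs against blank hydrogels were 4, and in neutrophil-like cells the members were 2 for Ndrg2-KO and 1 for blank hydrogels against control DCs. The median-ratio size factor gave 2 members between Ndrg2-KO DCs and blank hydrogels. In macrophage-like cells, members past 2-fold for blank hydrogels against control DCs were 1 without doublets, with at least 200 UMIs or at resolution 1, and 0 with 30 principal components. In the cultures, pathway genes past 2-fold for VD3 against untreated DCs went from 10 to 4 under 5% mitochondrial UMIs and to 4 with the mean over cells. Single members lost their place past 2-fold elsewhere too. The mean over cells gave Il1rap -0.92 after VD3, Il1a 0.96 in Ndrg2-KO against untreated DCs, Il1rap 0.50 between Ndrg2-KO and control DCs, and Il1a 0.69, Il1b 0.78, Il1r2 0.96 and Il1rap 0.68 between blank hydrogels and control DCs, while Il1b in Ndrg2-KO against untreated DCs reached -1.40. Without doublets, Il1rap between Ndrg2-KO and control DCs was 0.95. Naming each wound cell by its own markers moved 92 of 180 CPM values within cell types outside their intervals, while the counts of members past 2-fold stayed within 1.5 times. The members in these counts differed in macrophage-like cells, and in fibroblast-like cells Il1rn was no longer past 2-fold between Ndrg2-KO DCs and blank hydrogels. Holding shares fixed removes, by construction, differences in the shares of the types or clusters held. Differences in the mix of finer groups within them remain, and for the other settings the cause was not tested. The 300-UMI and all-barcode settings were not run within cell types, since added cells have no type. Il1r1 in VD3 stimulated DCs and Il33 in all cultures rest on few UMIs.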
